A study of Mus musculus with 18 samples.

Results

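The cell cycle and DNA replication genes described here were picked by the start of their gene symbol on the array. They cover the Mcm, Orc, Rfc, Pold, Pole, Rrm, Cdk, Cdkn, Cenp, Smc, Mad2 and Ska families, cyclins A, B, D and E, the Cdc genes, Pcna and Top2a. Of 128 matching symbols, 111 had a value on 9 or more of the 18 arrays and are the members, out of 8410 named genes that met the same minimum. The other 17 symbols, among them Ccnb2, Cdc7, Orc1 and Rfc3, had fewer values or none. Ccnb1, Ccne2, Cdkn1b, Cdkn2a and Cdkn2b were not found as the only symbol of a spot. By symbol alone, 83 members were grouped under the cell cycle. Some of them act elsewhere, such as the Mediator kinase Cdk8, and Ccnb2-ps is a pseudogene by its name. Another 28 meet the letters but are named for something else, such as the GTPase gene Cdc42 and its effectors, the chaperone partner Cdc37 and the adaptor Skap2.

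The hearts came from male and female mice kept for 1, 2 or 4 weeks as controls, under chronic constant hypoxia (CCH), or under hypoxia of the chronic intermittent kind (CIH). Strain, age, oxygen level and tissue region were not in the labels used here. Every array carried male heart cDNA in the dye Cy5 and female heart cDNA in Cy3, both from the same condition and duration, with 2 arrays in each of 9 groups. A value is therefore a log2 ratio of male over female heart, and a difference between conditions says that this ratio changed, not in which sex a transcript changed. Against 0, sex and dye cannot be told apart. Heart tissue holds many cell types, so fewer cells of a type and less RNA per cell cannot be told apart either.

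Before a cell divides, the origin recognition complex (Orc), Cdc6 and the Mcm helicase license the origins of replication. Cyclins with their cyclin-dependent kinases (Cdk) fire them, and inhibitors of the Cdkn family hold the kinases back. Polymerases delta and epsilon copy the strands on the Pcna clamp that the Rfc complex loads, with nucleotides supplied by ribonucleotide reductase (Rrm). Centromere proteins, cohesin and condensin (Smc) and topoisomerase Top2a then prepare the chromosomes for mitosis. Most adult cardiomyocytes have left the cycle, while endothelial cells, fibroblasts and blood cells in the heart can still divide.

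The direction of the ratio was taken from the Y-linked gene Eif2s3y, which was positive on 17 of 18 arrays and at -0.03 on CIH 4 weeks replicate 1. Between 12650 and 24512 spots had a value on an array. Nothing in the labels ties the paired arrays of a group to different mice, and the p-values cover only the spread among arrays, which may be technical. The title of CIH 1 week replicate 1 conflicts with its source names, which give 2 weeks of CCH, and it was grouped by its title. Control 2 weeks replicate 1 carries a code (1A) whose digit does not match its 2 weeks. One array stood apart in these genes. On control 1 week replicate 1 the median of the members was -0.35, and on the other arrays it lay between -0.11 and 0.14. Where leaving out this array moved a count of members by over 1.5 times, the text says so.

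The promoters of 7 members are shown because these genes carry the patterns described further on. Pcna, Top2a, Cdk1, Mcm5 and Mcm7 had their lowest and highest ratios on the same pair of control arrays. Rrm1 and Mcm3 were low on arrays of CIH. Each line gives the 250 bases before the annotated start, 5′ to 3′ on the strand of the gene, from RefSeq on GRCm38.p6. Capitals mark matches, on either strand, to E2F motifs (TTTGGCGC, TTTCGCGC, TTTCCCGC), to the NF-Y motif (CCAAT) and to CHR motifs, which many late cell cycle genes carry. One CHR form searched was TTTGAA. The other form of that motif was TTCGAA.
Pcna, chr2:132253181-132253430, minus strand: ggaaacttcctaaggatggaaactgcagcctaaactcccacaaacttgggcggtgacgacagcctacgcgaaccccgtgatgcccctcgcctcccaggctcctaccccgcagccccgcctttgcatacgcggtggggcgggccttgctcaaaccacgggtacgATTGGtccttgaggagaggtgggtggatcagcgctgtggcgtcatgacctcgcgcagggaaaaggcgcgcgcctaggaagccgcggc
Top2a, chr11:99024190-99024439, minus strand: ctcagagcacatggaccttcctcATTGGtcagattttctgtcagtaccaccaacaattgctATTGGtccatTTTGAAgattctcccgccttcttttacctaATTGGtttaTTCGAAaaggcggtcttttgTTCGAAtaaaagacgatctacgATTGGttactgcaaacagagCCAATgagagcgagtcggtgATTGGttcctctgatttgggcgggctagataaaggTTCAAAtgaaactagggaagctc
Cdk1, chr10:69352913-69353162, minus strand: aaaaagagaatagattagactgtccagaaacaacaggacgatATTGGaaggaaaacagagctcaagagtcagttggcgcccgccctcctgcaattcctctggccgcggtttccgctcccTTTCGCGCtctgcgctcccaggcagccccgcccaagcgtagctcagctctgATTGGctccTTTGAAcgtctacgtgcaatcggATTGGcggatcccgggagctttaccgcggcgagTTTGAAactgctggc
Mcm5, chr8:75109259-75109508, plus strand: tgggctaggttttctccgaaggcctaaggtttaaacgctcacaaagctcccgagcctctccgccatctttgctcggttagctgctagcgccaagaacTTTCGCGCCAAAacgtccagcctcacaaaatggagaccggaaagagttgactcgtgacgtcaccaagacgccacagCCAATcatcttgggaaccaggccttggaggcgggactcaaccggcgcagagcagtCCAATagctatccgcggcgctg
Mcm7, chr5:138171884-138172133, minus strand: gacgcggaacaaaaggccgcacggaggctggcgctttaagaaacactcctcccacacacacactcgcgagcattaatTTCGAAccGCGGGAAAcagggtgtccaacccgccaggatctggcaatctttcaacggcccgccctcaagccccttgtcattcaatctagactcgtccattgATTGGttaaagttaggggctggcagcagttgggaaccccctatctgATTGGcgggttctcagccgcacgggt
Rrm1, chr7:102441445-102441694, plus strand: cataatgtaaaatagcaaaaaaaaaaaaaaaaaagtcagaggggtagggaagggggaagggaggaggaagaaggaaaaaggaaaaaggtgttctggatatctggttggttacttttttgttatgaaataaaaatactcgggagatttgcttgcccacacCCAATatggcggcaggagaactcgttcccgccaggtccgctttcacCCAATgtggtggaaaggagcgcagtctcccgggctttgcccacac
Mcm3, chr1:20820313-20820562, minus strand: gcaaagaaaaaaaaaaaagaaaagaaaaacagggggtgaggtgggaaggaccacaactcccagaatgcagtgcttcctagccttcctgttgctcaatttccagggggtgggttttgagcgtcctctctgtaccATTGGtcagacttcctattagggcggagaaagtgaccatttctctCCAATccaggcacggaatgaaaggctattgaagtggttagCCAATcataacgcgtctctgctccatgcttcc

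The Top2a stretch held 6 NF-Y and 4 CHR matches, and that of Cdk1 held 3 NF-Y, 2 CHR and 1 E2F match. In Mcm5, 2 E2F matches overlapped each other, and no other matches in the printed stretches overlapped. Pcna held 1 NF-Y match, Rrm1 held 2 and Mcm3 held 3, with no E2F match in these letters. Over windows of 300 bases that add the 50 bases after the start, 14 of 93 members with an entry (15.1%) held an E2F motif, against 1.91% of 27025 promoters and 2.48% of those of protein-coding genes. They were Cdc25a, Cdc6, Cdk1, Cdk2, Cenpb, Cenpl, Mcm3, Mcm5, Mcm6, Mcm7, Pold1, Pold3, Pole4 and Smc1a. The NF-Y motif was in 50.5% of the members' windows and in 37.9% of all. CHR motifs were in 20.4% and 19.4%. A match is a run of letters, and binding was not measured.

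Of the 111 members, 90 had a value in every group and entered the tests, which covered 10272 genes and unnamed spots. The 21 that did not include Cdk4, Mad2l1, Pold1, Pole and Smc2. Across the arrays the members varied about as much as other genes. Their median SD over arrays was 0.316, against 0.332 for all tested, and 11 of 90 (12.2%) had an SD above 0.527, the level that 90% of all genes and spots tested stayed under. Mad2l2 (SD 0.871), Pcna (0.843) and Rrm1 (0.741) varied most.

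**Figure D1:**
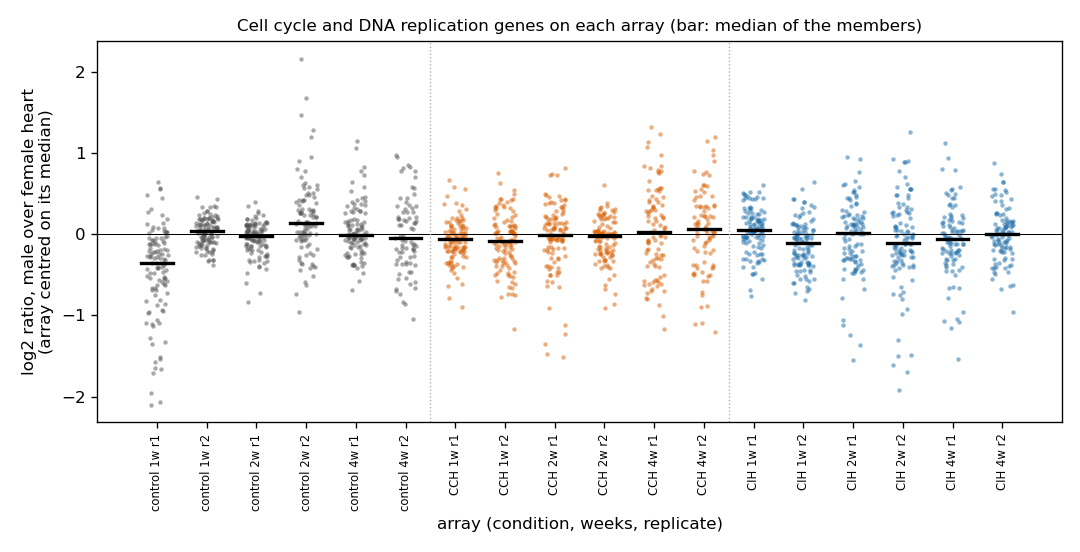
Each point is one member on one array, as the log2 ratio of male over female heart, and black bars are medians of the members. The bar of control 1 week replicate 1 lies at -0.35, below all other arrays.

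Pcna, Top2a, Cdk1 and Smc4 had both their lowest and their highest ratio on arrays of the untreated controls. Pcna, the sliding clamp of the polymerases, had log2 ratios of -1.96 and 0.20 on the control arrays of 1 week, -0.02 and 2.16 at 2 weeks, and 0.40 and -1.04 at 4 weeks. On the 6 arrays of CCH its ratios were -0.35, -0.39, 0.74, -0.01, 0.09 and -0.14, and on those of CIH 0.52, -0.39, 0.46, 0.89, 0.36 and -0.06. Both ends of its range were thus control arrays, and the hypoxia arrays lay inside it.

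Top2a, which untangles DNA before mitosis, had ratios of -1.35 and 0.22, 0.13 and 1.47, and 0.64 and -0.67 on the control arrays of 1, 2 and 4 weeks. Its 12 hypoxia arrays stayed between -0.45 and 0.48. Cdk1, the kinase of mitotic entry, had -1.51 and 0.18 at 1 week, 0.03 and 1.28 at 2 weeks, and 0.18 with 1 missing value at 4 weeks. The condensin subunit Smc4 ran from -1.71 on control 1 week replicate 1 to 1.68 on control 2 weeks replicate 2. In all of these genes the same pair of control arrays held the lowest and the highest value.

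Mcm7, a subunit of the replicative helicase, stood at -1.65 and 0.71 on these arrays, Mcm5 at -1.09 and 0.63, and the reductase subunit Rrm2 at -0.97 and 0.95. Mad2l1, the spindle checkpoint gene Mad2, was at -2.10 on control 1 week replicate 1 and has no value on the other. The G1 cyclin Ccnd3 was at -1.13 and 0.50. In contrast Ccnd1 (0.01 and -0.36), Cdk6 (-0.25 and 0.16) and the CDK inhibitor Cdkn1a (-0.08 and -0.39) were not at their extremes there as a pair.

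On control 1 week replicate 1, 17 of 111 members (15.3%) lay below -1, against 1.99% of all genes and spots tested. Of the 90 tested members, 29 (32.2%) had their lowest value there, against 7.4% of all, and 17 (18.9%) had their highest value on control 2 weeks replicate 2, against 5.63%. Other cell cycle genes of a listed set of 90 followed: their median was -0.56 on the first array and 0.23 on the second. The proliferation marker Mki67 was at -1.35 and 1.44.

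Markers of other cell types moved on the same arrays. The 15 measured leukocyte and macrophage markers were all below 0 on control 1 week replicate 1 (median -0.85). On control 2 weeks replicate 2 their median was 0.146, with 3 of 12 below 0. The thymus list had values for 2 of 8 genes, and Satb1 was at -2.03 and 1.52. Of 3 measured lung genes, Scgb1a1 was at -5.81 on control 1 week replicate 1, Sftpc at -0.83 and Sftpb at 0.23. On control 2 weeks replicate 2 they were at -0.30, -0.96 and -0.19. Fibroblast markers had medians of 0.31 and -0.32 on the 2 arrays, opposite to the replication genes. Endothelial markers had 0.345 and -0.290, and cardiomyocyte markers 0.683 and -0.785, with 2 and 4 genes measured. Skeletal muscle markers had 0.005 and -0.837, and red-cell markers -0.142 and 0.366. Atrial markers were above 0 on both arrays (1.079 and 1.889). The part of these cells in the members' ratios was not tested.

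**Figure D2:**
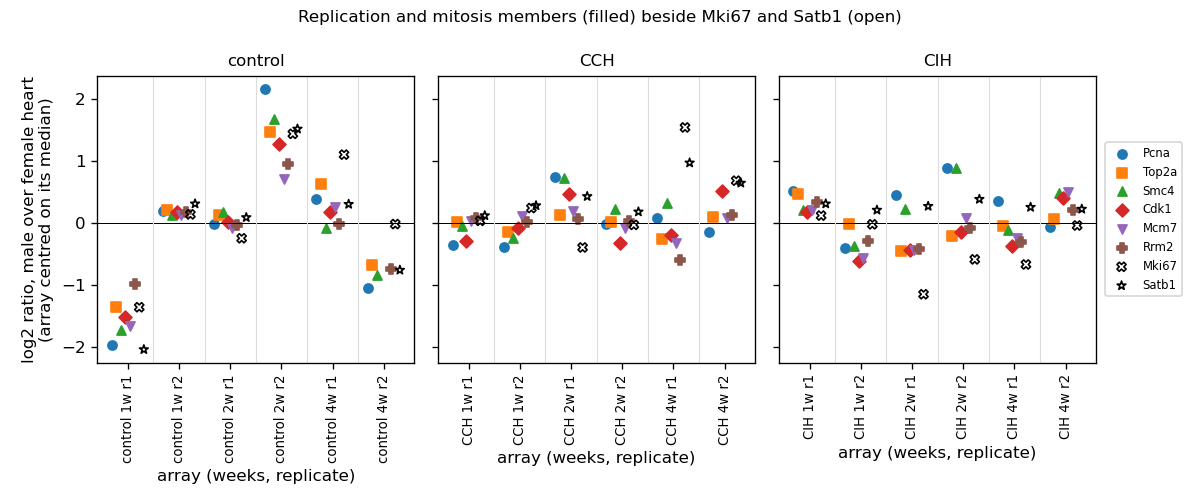
Log2 ratios of male over female heart for 6 replication and mitosis members (filled) and for Mki67 and Satb1 (open) on each array, 1 panel per condition. Pcna runs from -1.96 to 2.16 among control arrays, and its hypoxia arrays stay between -0.39 and 0.89.

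Comparisons with control at 1 week and at 2 weeks each use one of these arrays. At 1 week all 4 hypoxia arrays lay above the control mean in 37 of 90 members (41.1%), against 13.6% of all genes and spots tested. Without control 1 week replicate 1 this was 12 members (13.3%), against 20.9%. In 14 members (15.6%, against 6.18%) all 4 arrays were above control at 1 week and below it at 2 weeks, among them Pcna, Top2a, Cdk1, Smc4, Mcm5, Mcm7 and Rrm2. Without control 1 week replicate 1 there were 5 such members (5.56%, against 10.5%), and without control 2 weeks replicate 2 there were 6 (6.67%, against 4.96%).

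Averaged over all 9 groups, the ratio of 24 members differed from 0 (limma, Benjamini-Hochberg adjusted p under 0.05 over all 10272 tested). That is 26.7% of 90, where 27.7% of all genes and spots were called. Of them 8 were above 0, meaning higher in the male channel (8.89%, against 8.99%), and 16 below (17.8%, against 18.7%). At an unadjusted p under 0.05 there were 35 members (38.9%), against 41.1%. The share among the members was thus close to that of all genes, in both directions.

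Among licensing genes, Orc2, a subunit of the origin recognition complex, was higher in the male channel by 0.41 ± 0.06 (SE, n = 18 arrays, limma adjusted p = 0.000613) and positive on 16 of 18 arrays. Its ratios ran from -0.11 to 1.14 with a median of 0.31, and the median by condition was 0.17 in controls, 0.39 in CCH and 0.48 in CIH. Mcm9, a relative of the helicase subunits that acts in DNA repair, was also higher (0.30 ± 0.06, n = 17, limma adjusted p = 0.00379). Mcm2 (-0.29 ± 0.08) and Mcm3 (-0.29 ± 0.10), both subunits of the helicase, were lower in the male channel. Mcm4, Mcm5, Mcm6 and Mcm7 had means of -0.21, -0.01, 0.07 and -0.04 and did not pass.

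In the polymerase and clamp group, 3 of 9 tested members were called, all lower in the male channel (18.7% of all). They were the polymerase delta subunit Pold4 (-0.20 ± 0.05) and the clamp loader subunits Rfc1 (-0.18 ± 0.05) and Rfc5 (-0.20 ± 0.06). Pcna had 0.08 ± 0.16 and was not called. Of the 3 ribonucleotide reductase genes, only Rrm2b, the subunit used outside S phase, was called (0.31 ± 0.08). Rrm1 had -0.05 and Rrm2 -0.08.

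Among 6 cyclin symbols, Ccnd2 was lower in the male channel (-0.14 ± 0.05, limma adjusted p = 0.0483). Ccnd1, Ccnd3, Ccne1 and Ccna2 had -0.08, -0.06, -0.12 and 0.00. The pseudogene Ccnb2-ps had -0.163 and was not called. Of 10 tested CDK genes, only the Mediator kinase Cdk8 was called (0.26 ± 0.07). Cdk1, Cdk2 and Cdk6 had -0.03, 0.12 and -0.05. The inhibitor Cdkn1a, known as p21, was lower (-0.20 ± 0.07), and Cdkn2c and Cdkn2d had 0.16 and 0.02.

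The centromere and spindle group had 5 of 10 tested members called, where 27.7% of all genes and spots were called. Groups this small were not tested as sets. Cenpa, the centromeric histone, was higher in the male channel (0.22 ± 0.05). Cenpx (-0.29 ± 0.05), the spindle attachment gene Ska1 (-0.25 ± 0.05), the mitotic motor Cenpe (-0.40 ± 0.10) and the DNA-binding Cenpb (-0.22 ± 0.06) were lower. Cdc14a, a phosphatase, was lower too (-0.29 ± 0.07), and it was the only one of 8 in the anaphase and phosphatase group. None of the 6 tested Smc and Top2a genes was called. Their means ran from -0.13 to 0.11, with 0 at an unadjusted p under 0.05 (41.1% of all).

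The remaining 7 calls belong to genes named for something else, some of which still act on the cycle, such as Cdc34, a ubiquitin-conjugating enzyme. Smchd1, which keeps the inactive X chromosome silent, was higher (0.28 ± 0.05, positive on 17 of 18 arrays), as were Cdc42ep5 (0.26) and Mcm3ap (0.18). Cdc37 (-0.19), Cdc34 (-0.19), Cdk2ap1 (-0.30) and Cdk5rap3 (-0.15) were lower. When each array was left out in turn, 17 of the 24 calls were kept in every fit that could test them. Those lost at least once were Cenpb, Rfc5, Cdk5rap3, Mcm3, Mcm3ap, Cdkn1a and Ccnd2. Mcm9, Pold4, Cdk8 and Cdc42ep5 could be tested in 17 of the 18 fits, and Rrm2b in 16. Over all alternatives except each spot tested alone, only 10 of the 24 were kept wherever they could be tested. They were Orc2, Cenpx, Smchd1, Mcm9, Ska1, Cdc14a, Cdc37, Cenpe, Rfc1 and Rrm2b. Of 29 such settings, Mcm9 could be tested in 27 and Rrm2b in 26. Cenpa, Pold4, Cdc34, Cdk8, Cdc42ep5, Mcm2 and Cdk2ap1 withstood the omission of arrays but missed the threshold under another alternative. Of 57 tested cell cycle genes outside the families, 3 were higher (Plk1, Gmnn and Anapc4), where 8.99% of all genes and spots were. Lower were 10 of the 57, where 18.7% of all were. Among these 10 were E2f4 (-0.30), Ncaph (-0.38), Prc1 (-0.40), Bub1b (-0.41) and Pttg1 (-0.41).

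**Figure D3:**
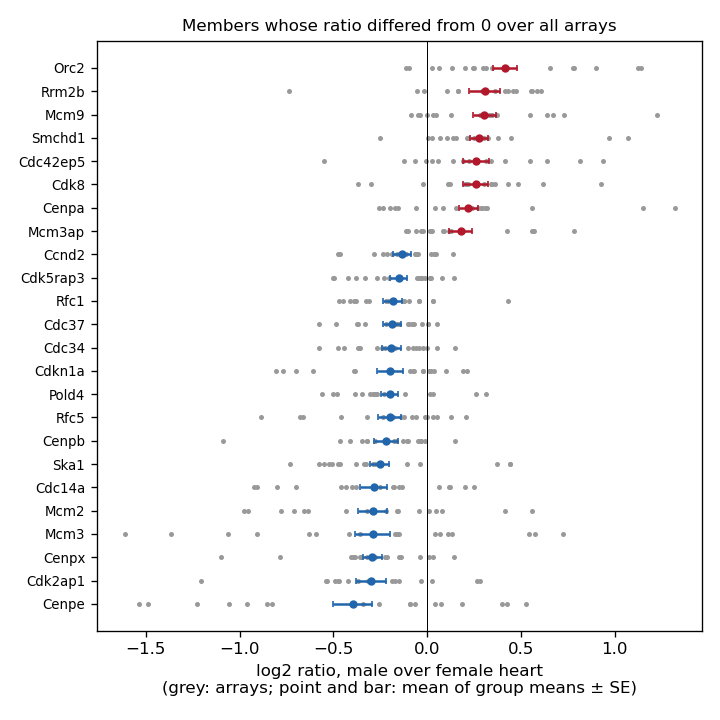
The 24 members whose log2 ratio of male over female heart differed from 0, with the mean and its SE (coloured) and every array (grey). Orc2 has the highest mean (0.41) and Cenpe the lowest (-0.40), and single arrays of most genes lie on both sides of 0.

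In the 6 control arrays alone, 0 of 90 members passed (0.00974% of all), and 7 had an unadjusted p under 0.05 (9.15% of all). Ska1 was below 0 on all 6 control arrays (-0.29, -0.25, -0.48, -0.73, -0.28 and -0.55), with a mean of -0.43 ± 0.09 and a limma adjusted p of 0.161. The X-linked cohesin subunit Smc1a was below 0 on all 6 as well (mean -0.35 ± 0.11, limma adjusted p = 0.338).

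CIH against control, averaged over the 3 durations, gave 0 of 90 members past the threshold (0.00974% of all). At an unadjusted p under 0.05 there were 14 (15.6%), against 12.7% of all, and the 14 became fewer without control 2 weeks replicate 2. Rrm1, the large subunit of ribonucleotide reductase, came closest. Its ratios were -0.22, 0.20, -0.43, 0.60, 1.06 and 0.78 in controls and 0.17, 0.39, -1.24, -1.69, -0.95 and -0.56 in CIH. The difference was -0.98 ± 0.20 (SE, n = 6 arrays each, limma adjusted p = 0.0521, range over alternatives 0.0138 to 0.469). All 4 CIH arrays of 2 and 4 weeks lay below every control array, and both of 1 week lay among them.

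Mad2l2, which acts in DNA repair and holds back the anaphase-promoting complex, had ratios of 0.04, 0.34, -0.72, 0.58, 1.15 and 0.85 in controls and -0.76, 0.06, -1.55, -1.92, -1.15 and -0.62 in CIH. Its difference was -1.37 ± 0.28 (limma adjusted p = 0.0521, range over alternatives 0.0132 to 0.469). Every CIH array was below the control mean of its duration, and the groups overlapped. Cenpe had -0.92 ± 0.25 (limma adjusted p = 0.0889) and Mcm3 -0.83 ± 0.23 (limma adjusted p = 0.0989). Ccndbp1, a cyclin D binding protein, had -0.82 ± 0.28.

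In the other direction, Smc1a had ratios of 0.25, -0.09, 0.49, 0.71, 0.38 and 0.07 in CIH and -0.70 to -0.01 in controls, a difference of 0.65 ± 0.15 (limma adjusted p = 0.0565). Ska1 had -0.04, -0.47, 0.44, 0.37, 0.44 and -0.10 in CIH, a difference of 0.54 ± 0.13 (limma adjusted p = 0.0605). All CIH arrays but 1 week replicate 2 lay above every control value of Ska1. Among the genes outside the families, the kinetochore gene Spc24 had the smallest p (-0.97, limma adjusted p = 0.0521), and 0 of 57 passed.

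The red-cell genes Alas2 and Slc4a1 were also low on these arrays. Of 14 listed red-cell genes 5 had values, with medians on the CIH arrays of 2 and 4 weeks of -0.79, -2.63, -1.68 and -0.72, and of -0.28 to 1.18 on control arrays. Alas2, the heme synthesis enzyme of red-cell precursors, was at -1.77, -2.82, -1.68 and -1.41 on the CIH arrays of 2 and 4 weeks, and at -2.04 on CCH 2 weeks replicate 1. The red-cell membrane gene Slc4a1 was at -1.34, -2.44, -1.91 and -1.66, and at -2.01 on that CCH array. The red-cell transcription factor Klf1 was at 0.03, -0.60 and -0.03 on the CIH arrays of 2 and 4 weeks where it had a value, and Gata1 at -0.25 and 0.33, while on that CCH array they were at -1.41 and -0.28. On CCH 2 weeks replicate 1, Rrm1 had -0.63, Mad2l2 -1.47, Mcm3 -0.91, Cenpe -1.23 and Ccndbp1 -1.35, while CCH 2 weeks replicate 2 had 0.21, 0.20, 0.04, 0.04 and 0.22. The part of red cells in these ratios was not tested.

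**Figure D4:**
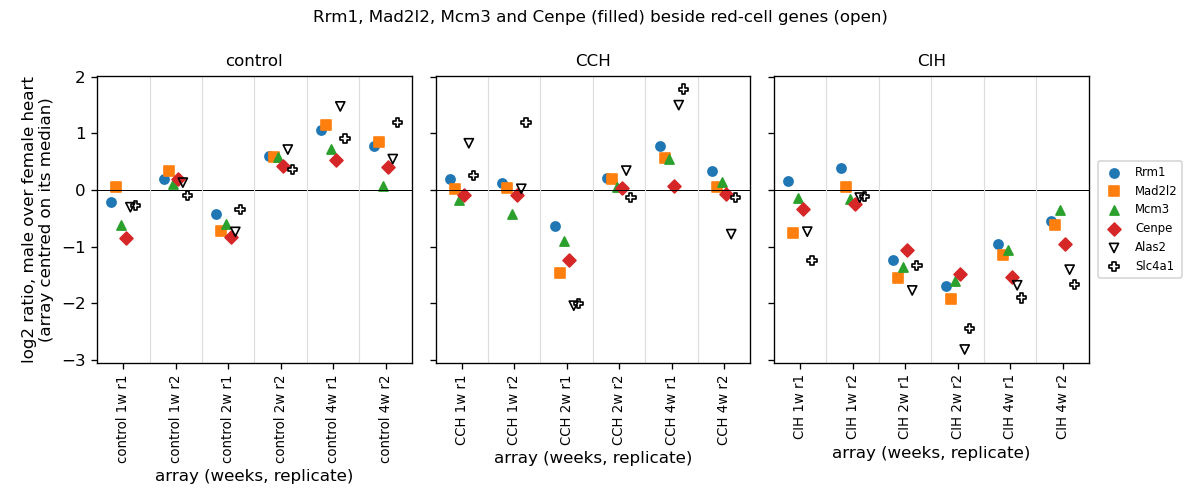
Log2 ratios of male over female heart for Rrm1, Mad2l2, Mcm3 and Cenpe (filled) and for the red-cell genes Alas2 and Slc4a1 (open), 1 panel per condition. The lowest value of each of these 6 genes is on a CIH array of 2 or 4 weeks, with Alas2 down to -2.82.

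Separate spots of Rrm1, and of the helicase genes Mcm2 and Mcm6, did not give the same picture. Mad2l2, Mcm3 and Ska1 had no second spot to compare. Rrm1 had spots 545 and 6309. Spot 6309 read -1.24, -1.69, -0.95 and -0.56 on the CIH arrays of 2 and 4 weeks, where spot 545 has no value, and on the CIH arrays of 1 week they read -0.27 and -0.28 against 0.60 and 1.07. The mean of Rrm1 thus rests on different spots at different durations.

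Mcm2 had both spots on these arrays. Spot 10615 read -1.32, -1.80, -1.28 and -0.61 and spot 6082 read -0.24, -0.16, -0.03 and 0.29. For Mcm6, spot 9158 read -1.25, -0.70, -0.86 and 0.05 and spot 2546 read 0.15, 0.27, -0.01 and -0.37. Cenpe rested on spot 9964 alone at 2 and 4 weeks. Over the 81 members with several spots, the median range between spots of a gene on an array was 0.447, and it was over 0.5 in 33 of them. For Smc1a it was 0.308. Top2a reached 0.995, with spots at 0.66, -2.68 and -2.04 on control 1 week replicate 1.

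**Figure D5:**
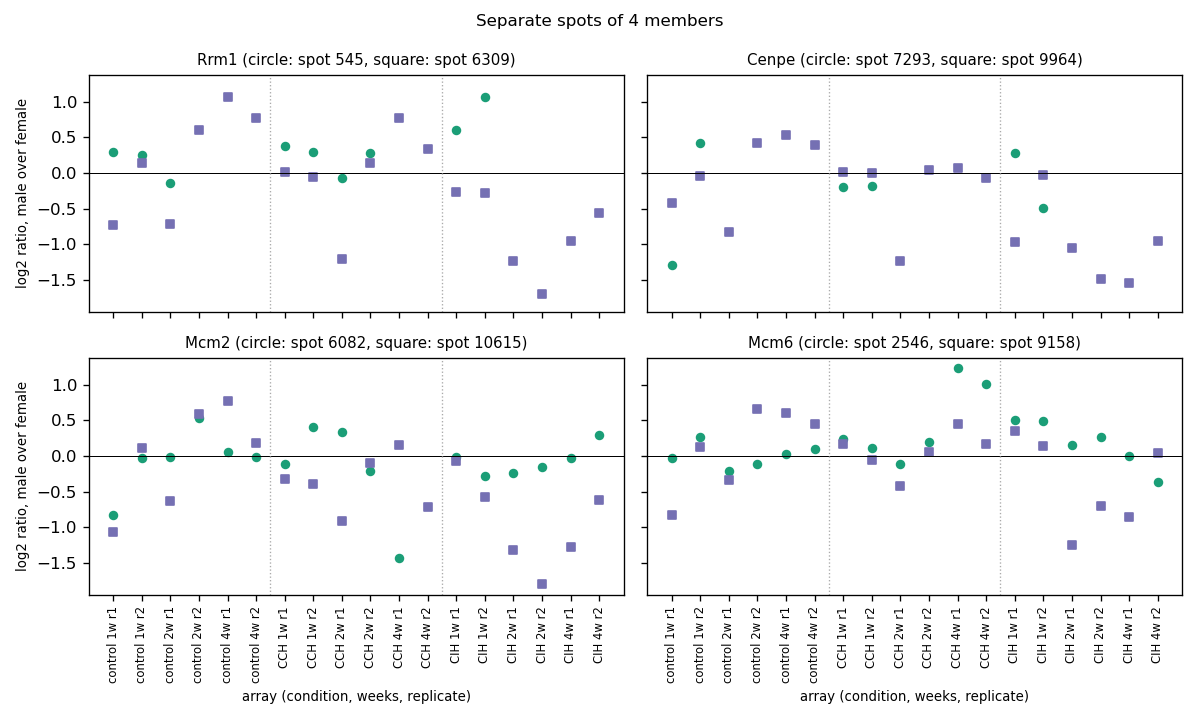
Log2 ratios of male over female heart on each array for the separate spots of Rrm1, Cenpe, Mcm2 and Mcm6. On the CIH arrays of 2 weeks the spots of Mcm2 lie apart, at -1.32 and -1.80 against -0.24 and -0.16.

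CCH against control gave 0 members (0% of all) and 7 at an unadjusted p under 0.05 (6.32% of all). The 7 became fewer without control 2 weeks replicate 2. The smallest p was that of Cenpa (0.43 ± 0.12, limma adjusted p = 0.699), which was above the control mean of its duration on all 6 arrays of CCH. Its ratios there were 0.56, 0.29, -0.06, -0.17, 1.32 and 1.15, so that both arrays of 4 weeks were above every other array. Cenpx, part of a DNA-binding centromere complex, was at -0.78 and -1.10 on those arrays. Smchd1 (0.37 ± 0.12) and Mcm9 (0.45 ± 0.15) had the next positive differences.

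The direct comparison of CCH with CIH, which does not use the controls, gave 0 members (0.00974% of all) and 12 at an unadjusted p under 0.05 (9.28% of all). On all 6 arrays of CCH, Ska1 was below the CIH mean of the same duration (-0.55 ± 0.13, limma adjusted p = 0.155), and Rrm1 had 0.81 ± 0.20 (limma adjusted p = 0.155). Both kinds of hypoxia together against control gave 0 (0% of all) and 14 (11.1% of all), and the 14 became fewer without control 2 weeks replicate 2. Mad2l2 had -0.92 ± 0.24 there, with 11 of 12 hypoxia arrays below control. The comparisons of CCH, of CIH and of both with control share the control arrays, so their values are not independent.

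At single durations 0 members passed in any of 6 comparisons by limma. CCH at 1 week (0% of all) had 3 members at an unadjusted p under 0.05 (6.15% of all), and CIH at 1 week (0% of all) had 3 (2.34% of all). Both counts were lower without control 1 week replicate 1, where the share of all genes is not given. The median difference over the tested members turned from 0.15 and 0.17 to -0.06 and -0.03 without it. CCH at 2 weeks (0.0195% of all) had 6 (9.38% of all), and CIH at 2 weeks (0.00974% of all) had 17 (22.7% of all). Both counts were lower without control 2 weeks replicate 2, where the share of all genes is not given. Without it the median difference over the tested members went from -0.06 and -0.09 to 0.04 and -0.05. CCH at 4 weeks (0% of all) had 10 (15.1% of all), and CIH at 4 weeks (0% of all) had 9 (8.14% of all). The smallest adjusted p was that of Cenpa in CCH at 4 weeks (0.93 ± 0.21, limma adjusted p = 0.113). In CIH Rrm1 had -1.55 ± 0.34 at 2 weeks and -1.67 ± 0.34 at 4 weeks, with limma adjusted p-values of 0.117 and 0.116.

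Duration itself gave 0 members in the hypoxia arrays at 4 weeks against 1 week (0% of all), with 10 at an unadjusted p under 0.05 (13% of all). Orc2 had 0.73 ± 0.19 (limma adjusted p = 0.231) and Cdk18 had 0.67 ± 0.20. The controls gave 0 (0% of all) and 5 (4.47% of all), and the 5 became fewer without control 1 week replicate 1. In them Mcm5 had 0.90 ± 0.33, and 0.38 without control 1 week replicate 1, and Pcna had 0.56, and -0.52 without that array. An F test for a hypoxia effect that depends on duration gave 0 (0% of all) and 9 (12.8% of all), with Cenpa (limma adjusted p = 0.380) and Rrm1 (0.381) first.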

How the data were processed

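The authors deposited 1 log2 ratio of both channels per spot and array. Base 2 was read from the values, whose linear mean is 1 on every array. The direction was inferred from Eif2s3y. Background correction, normalization and spot filters are not given in the sources used here. Of 28704 spots, 18511 carried 1 gene symbol, from a platform annotation that can be old. The median of an array was subtracted from its values, and spots of 1 symbol were then averaged. Limma 3.58.1 in R 4.3.3 fitted 9 group means over all 18 arrays to the 10272 genes and unnamed spots with a value in each group (eBayes, prior SD 0.269, two-sided, Benjamini-Hochberg, threshold 0.05), and was tested on simulated data. The number of arrays limits the precision. Members named are those past the threshold, otherwise the 10 smallest p-values per comparison, and listed anchors of the cycle. The members, lists and tests were chosen with earlier results of these data known. Alternatives varied the centring, filter, spots, model and arrays. Counts and medians without single control arrays were added after seeing the data. Shares of all genes at an unadjusted p under 0.05 are not given for those fits. Symbols of 93 of 111 members matched a promoter.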

Additional observations from a re-analysis of the deposited data

Results flagged for a closer look

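In 21 members all 4 hypoxia arrays lay above the control mean at one duration and all 4 below it at another, a difference in direction between durations that was not tested pair by pair. The share of all genes and spots with any such reversal is not given, so 21 cannot be set against it. For above at 1 week and below at 2 weeks, the shares were 15.6% of the members and 6.18% of all. The F test over durations passed for none of them (limma adjusted p in brackets). Above control at 1 week and below at 2 weeks were Cdk1 (0.654), Cdk5rap2 (0.662), Cenpo (0.395), Mcm5 (0.515), Mcm7 (0.592), Rrm2 (0.555), Smc4 (0.687) and Top2a (0.442). Ccne1 (0.386), Cdc6 (0.388) and Mcm2 (0.39) were above at 1 week and below at both 2 and 4 weeks. Ccnd3 (0.432), Cdkn2aipnl (0.393) and Pcna (0.777) were above at 1 and at 4 weeks and below at 2 weeks. Cdc23 (0.562), Cdc25a (0.626), Mcm4 (0.398) and Rrm1 (0.381) were above at 1 week and below at 4 weeks. Cdc34 (0.594), Cdc42 (0.406) and Cdk2ap1 (0.836) were below at 1 week and above at 2 weeks. Among the genes listed here as above control at 1 week, few stayed so without control 1 week replicate 1. Only Ccne1, Cdc6, Cdk5rap2 and Cenpo of them kept all 4 hypoxia arrays above control. Without control 2 weeks replicate 2, the direction above at 1 week and below at 2 weeks was kept by Ccne1, Cdc6, Cdk5rap2, Cdkn2aipnl and Cenpo. Cdk1, Mcm2, Mcm5, Mcm7, Pcna, Rrm2, Smc4, Top2a and Ccnd3 lost it when either array was left out. For Cdc34, Cdc42 and Cdk2ap1 this was not recomputed.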

How the results depend on the processing

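None of the 24 calls over all arrays changed sign under the alternatives, and neither did the CIH differences of Rrm1, Mad2l2, Smc1a, Ska1, Cenpe and Mcm3. The count of members called in CIH against control (0) became 2 without centring, 2 with genes on all arrays, 2 with the median of spots and 2 with each spot tested alone. Leaving out single arrays gave 0 to 5: 5 without control 2 weeks replicate 1, 4 without CCH 2 weeks replicate 1, CCH 2 weeks replicate 2 or CIH 1 week replicate 2, and 3 without CIH 4 weeks replicate 2. CCH against CIH gave 0 to 2, with 2 without CCH 2 weeks replicate 1. The 6 comparisons at single durations gave 3 in all with array weights and 0 to 3 on leaving out arrays, with 3 without either CCH 2 weeks array. The control ratio gave 1 call (Ska1) after quantile normalization and 1 with arrays scaled to a common spread. The 24 calls over all arrays became 40 with each spot tested alone, where a gene counts if any spot passes, and 18 to 25 on leaving out arrays. Letters A and B of the titles gave no common pairing of arrays. Over 21 pairs of groups, correlations of deviations ran from -0.548 to 0.447, and 9 exceeded 0.1. A pairing of some arrays is not excluded. With the letter as a replicate block on 16 arrays there were 13 calls over all arrays and 3 in CIH against control, and without the block on those arrays, a comparison added after seeing the data, CIH against control also gave 3. The causes were not tested. Shares of all genes called under each alternative are not given, so these counts cannot be read as particular to the members. For single genes, values with each spot tested alone are not given, since a gene then has several. Genes with few values rest on fewer arrays, and groups with 1 value share the pooled spread.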
